A study of Mus musculus with 8 samples.

Results

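The genes described are 10 nuclear genes that encode proteases of the mitochondrion and the 2 prohibitins that hold such proteases in the inner membrane. They were taken by name as Lonp1, Clpp, Clpx, Afg3l2, Yme1l1, Spg7, Htra2, Phb, Phb2 and Oma1, and all 10 were found among the 41388 genes of each table. RNA was sequenced from macrophages of the epididymal fat pad (eWAT) of 4 male MitoFat mice on normal chow, a strain in which the mitochondria of adipocytes carry a reporter. From each mouse, live CD45+ F4/80+ CD64+ cells with the reporter signal (mtD2+) were sorted apart from those without it (mtD2-), which gave 4 mtD2+ and 4 mtD2- libraries in 4 pairs. The mtD2+ cells had received mitochondria from adipocytes in the living animal, and the question is how their RNA differs from that of their mtD2- neighbours. The labels do not state the age of the mice, the promoter behind the reporter or how many cells each library came from.

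Mitochondria degrade their own damaged and surplus proteins. In the matrix, the soluble ATP-dependent protease Lonp1 and the complex of the unfoldase Clpx with the peptidase Clpp take up unfolded substrates, while membrane-bound AAA proteases face the matrix (Afg3l2 and Spg7, the m-AAA protease) or the intermembrane space (Yme1l1, the i-AAA protease). Oma1 is a stress-activated peptidase of the inner membrane that cuts the fusion protein Opa1, as Yme1l1 does at another site, and Htra2 is a serine protease of the intermembrane space. Phb and Phb2 assemble into ring complexes of the inner membrane that bind the m-AAA protease, and Phb2 also serves as a receptor in mitophagy. Mitochondrial chaperones and proteases are classical targets of the transcriptional response to protein stress in mitochondria.

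The promoters of Phb and Phb2 are shown because their products form 1 complex, and that of Lonp1 because it is a classical stress-responsive protease. A short stretch before Hspe1, a mitochondrial chaperonin gene whose RNA differed between the populations, is set beside them. Promoter sequences were taken from RefSeq (GRCm38.p6), which matched 8 of the 10 genes, all but Afg3l2 and Htra2. The Lonp1, Phb and Phb2 sequences end at the base before the annotated start, and that of Phb2 begins after the exons of its divergent neighbour Emg1. Capitals mark matches to the searched motifs on either strand. The windows lie at chr17:56626904-56627153 (minus strand), chr11:95666707-95666956 (plus strand), chr6:124712179-124712288 (plus strand) and chr1:55088056-55088085 (plus strand).
Lonp1: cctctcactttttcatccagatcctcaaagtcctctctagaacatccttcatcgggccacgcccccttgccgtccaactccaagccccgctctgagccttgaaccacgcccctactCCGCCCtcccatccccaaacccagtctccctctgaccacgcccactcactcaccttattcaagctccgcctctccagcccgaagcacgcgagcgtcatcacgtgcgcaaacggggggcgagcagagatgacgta
Phb: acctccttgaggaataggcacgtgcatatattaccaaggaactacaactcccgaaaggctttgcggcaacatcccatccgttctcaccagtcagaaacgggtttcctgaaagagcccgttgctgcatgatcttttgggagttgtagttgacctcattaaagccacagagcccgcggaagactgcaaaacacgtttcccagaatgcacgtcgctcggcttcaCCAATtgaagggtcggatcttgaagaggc
Phb2: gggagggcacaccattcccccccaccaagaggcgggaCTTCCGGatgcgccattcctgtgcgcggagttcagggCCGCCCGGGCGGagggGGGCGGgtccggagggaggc
Hspe1: ccgttctaGAACCTTCCGGAAGgccccgcg

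In the 250 bases before the start, the heat shock element (GAANNTTC) had no match in any of the 8 promoters, against a share of 6.69% of all 32851 RefSeq promoters, and neither did the ATF4-C/EBP motif (TGATGNAA, 3.45% of all promoters). Hspd1 has 2 RefSeq starts, and the element in the Hspe1 stretch lies before the inner one, within the annotated span of Hspd1. The 250 bases before its outer start held 0 matches to the element. Hspd1 did not pass the test between the populations (log2 0.15), and whether the element bears on these values was not tested. Parl and Afg1l, each with a heat shock element too, did not pass either (log2 −0.19 and 0.29). In the Hspe1 stretch the heat shock element overlaps a match to the ETS core (CCGGAAG). That core was present in 2 of the 8 promoters, those of Yme1l1 and Phb2 (6.91% of all). The NRF1 motif (GCGCA and GCGC with any base between them) was present in those of Spg7 and Oma1 (3.74% of all). The RefSeq starts of Spg7, Oma1 and Yme1l1 lie inside the gene spans of the deposited tables. The GC box (GGGCGG) was present in 6 of 8 (32.7% of all) and the CCAAT box (CCAAT) in 3 of 8 (33.8% of all), Phb among them. The 8 promoters were 50.8% to 64.8% G and C, against a median of 52.4% over all promoters. The shares were not adjusted for this content. No searched motif was present in both the Phb and the Phb2 promoter. A match is a run of letters and was not tested as a binding site.

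The libraries held 18462287 to 27464399 gene-assigned counts. Every one of 8 macrophage markers was detected in every library, and their summed level was 11340 to 12940 CPM (counts scaled to a common library size) in mtD2+ and 12210 to 13430 CPM in mtD2- libraries, and 1 of them fell (Adgre1). All 12 fibroblast and adipocyte precursor markers were also present in every library, at a summed 606.2 to 926.1 CPM in mtD2+ against 1853 to 4673 CPM in mtD2-, and 9 of the 12 fell. All 8 adipocyte markers were found, with a sum of 115.3 to 272.8 CPM in mtD2+ and 107.8 to 178.7 CPM in mtD2-, and Plin1 alone was at 0 in 1 mtD2- library. The ratio of these sums was log2 0.45, 0.98, −0.01 and 0.61 in mice 1 to 4. All 8 had a positive log2 fold change (median 0.539), as did 6954 of the 13933 genes tested, and 0 passed. Of 6 endothelial and 6 lymphocyte markers, 5 and 4 were abundant enough to test, with sums of 13.2 to 31.24 and 19.56 to 30.61 CPM in mtD2+ against 18 to 21.76 and 36.98 to 57.7 CPM in mtD2-. No endothelial marker passed, and 1 lymphocyte marker fell (Cd79b, log2 −0.92, adjusted p = 0.0419). Of 21 genes that tissue digestion is known to induce, 8 rose, where 3.72% of all tested genes did. Those 8 were Hspa1b, Hspa8, Hsp90aa1, Hsp90ab1, Dnaja1, Ier3, Atf3 and Ppp1r15a. Fos, Fosb, Ier2, Dusp1 and Egr1 did not pass (log2 −0.10, −0.02, −0.29, 0.01 and 0.12). Zfp36, Nr4a1, Jun and Hspa1a did not pass either (log2 0.75, 0.56, 0.46 and 0.45). Nor did Btg2, Junb, Dnajb1 and Jund (log2 0.39, 0.36, 0.34 and 0.31). Of the 21, 18 had a positive log2 fold change, as did 6954 of the 13933 genes tested. At an unadjusted edgeR p of 0.05, 13 of the 21 passed, against 22.8% of all tested genes. The sum of all 21 in mtD2+ stood above that of mtD2- by log2 0.61, 0.89 and 0.67 in mice 1, 2 and 3 but by 0.09 in mouse 4. The mtD2- library of mouse 4 stood farthest out on the first principal component (81.1, against −60.5 to 28.3 for the other libraries).

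None of the 10 protease and prohibitin genes passed the test between mtD2+ and mtD2- macrophages. Their log2 fold changes, mtD2+ over mtD2-, lay between −0.35 (Phb) and 0.29 (Spg7), with a median of −0.028 against −0.001 over all 13933 genes tested. With edgeR's quasi-likelihood test, the mouse as a block and Benjamini-Hochberg adjustment over all genes, 0 of 10 passed an adjusted p of 0.05, where 5.5% of all tested genes did (767 genes, 519 higher and 248 lower). At an unadjusted p of 0.05 edgeR also passed 0 of 10, against 22.8% of all genes. DESeq2 and limma voom called 0 of 10 at an adjusted p of 0.05, against 13% and 7.65% of all genes. Both also passed 0 of 10 at an unadjusted p of 0.05. All 10 genes were well measured, with 342 to 2830 counts per library. The 95% interval of the fold change lay inside 2-fold in either direction for each of the 10, as it did for 55.8% of all tested genes. In sorted bulk samples, fewer cells with an RNA and less of it per cell cannot be told apart. TMM, edgeR's default scaling between libraries, put 67.7% of the calls over all genes on the higher side, and scaling by library totals alone put 53.8% there. Under both, 0 of these 10 genes passed.

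**Figure D1:**
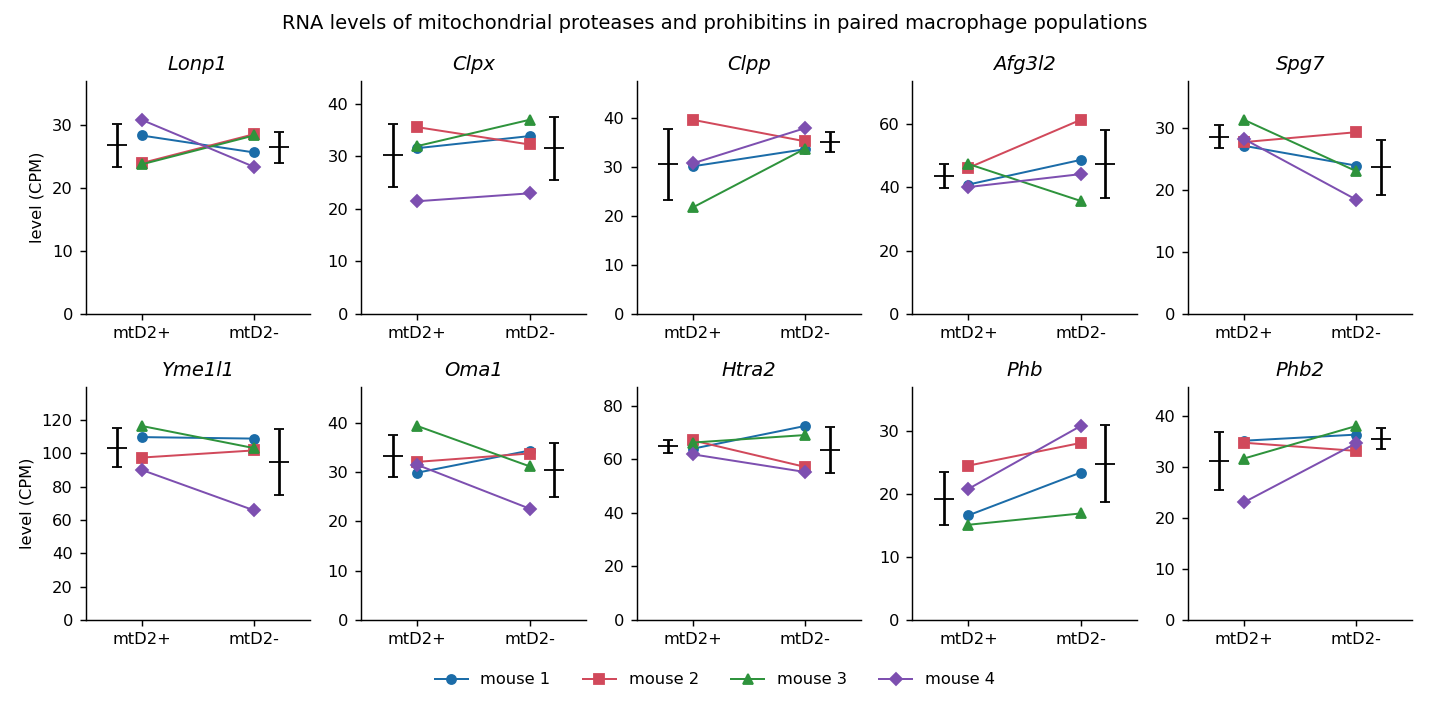
Level of each gene in CPM (y axis, from 0) in the mtD2+ and mtD2- library of each mouse, with a line joining the pair and bars for the mean ± SD of 4 mice. The groups overlap in all 10 panels, where 12.6% of all tested genes had groups that did not overlap. Phb is the 1 gene whose level is lower in mtD2+ in all 4 mice.

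Among the soluble matrix proteases, Lonp1 (chromosome 17, 56614301 to 56626903, minus strand, GRCm38) had the smallest difference. It stood at 28.4, 24.0, 23.8 and 30.9 CPM in mtD2+ for mice 1 to 4, against 25.7, 28.6, 28.4 and 23.4 CPM in mtD2-. The groups overlapped almost fully, with 2 mice higher and 2 lower in mtD2+ (log2 fold change 0.01, 95% interval −0.38 to 0.39, adjusted p = 0.981). Clpp (chromosome 17, 56990264 to 56996371, plus strand), the peptidase that Clpx feeds, was at 30.1, 39.6, 21.7 and 30.7 CPM in mtD2+ and at 33.6, 35.2, 33.7 and 37.9 CPM in mtD2-. The mtD2- values were close together, and every mtD2+ value but that of mouse 2 lay below all of them. The coefficient of variation was 24.0% in mtD2+ and 5.6% in mtD2- (log2 −0.23, interval −0.60 to 0.14, adjusted p = 0.446). Clpx (chromosome 9, 65294260 to 65330658, plus strand) was at 31.5, 35.5, 31.9 and 21.4 CPM in mtD2+ and at 33.8, 32.2, 36.9 and 22.9 CPM in mtD2-. Both of its libraries from mouse 4 were the lowest of their group, so that the mice differed more than the populations (log2 −0.07, interval −0.39 to 0.26, adjusted p = 0.827).

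The inner membrane proteases had small differences of either sign. Afg3l2 (chromosome 18, 67404767 to 67449166, minus strand), the m-AAA subunit that can form the complex alone, was at 40.9, 46.2, 47.4 and 40.1 CPM in mtD2+ against 48.7, 61.4, 35.7 and 44.2 CPM in mtD2-. It was lower in mtD2+ in 3 mice and higher in mouse 3 (log2 −0.10, interval −0.46 to 0.26, adjusted p = 0.753). Spg7 (chromosome 8, 123062942 to 123097760, plus strand), which encodes paraplegin, the m-AAA subunit mutated in a human spastic paraplegia, was at 27.1, 27.7, 31.3 and 28.2 CPM in mtD2+ against 23.9, 29.3, 23.0 and 18.4 CPM in mtD2-. The mtD2+ libraries were tightly grouped, and 3 of the 4 mtD2- libraries lay below all of them (log2 0.29, interval −0.09 to 0.67, adjusted p = 0.346, and log2 0.18 without mouse 4). Yme1l1 (chromosome 2, 23156369 to 23199260, plus strand) was at 109.8, 97.5, 116.5 and 90.1 CPM in mtD2+ against 108.9, 101.8, 103.2 and 65.8 CPM in mtD2-. The mtD2- library of mouse 4 lay far below the rest, and without that mouse the log2 fold change was 0.04, against 0.14 with it (interval −0.13 to 0.42, adjusted p = 0.525). Oma1 (chromosome 4, 103313812 to 103371868, plus strand) was at 29.9, 32.1, 39.4 and 31.5 CPM in mtD2+ and at 34.4, 33.8, 31.2 and 22.6 CPM in mtD2-. It too was lowest in the mtD2- library of mouse 4 (log2 0.13, interval −0.24 to 0.51, adjusted p = 0.673, and log2 0.02 without mouse 4).

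Htra2, the intermembrane space serine protease, was the steadiest of the mtD2+ levels, at 63.9, 67.0, 66.2 and 61.8 CPM, against 72.4, 57.1, 69.0 and 55.2 CPM in mtD2-. All mtD2+ values lay inside the mtD2- range (log2 0.04, interval −0.24 to 0.31, adjusted p = 0.888). Its exons (chromosome 6, 83051266 to 83055273, minus strand) share 36.1% of their bases with Loxl3 and Aup1 on the other strand, and with no statement on strand in the counting, reads of these genes may not be told apart.

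Both prohibitins had negative log2 fold changes that did not pass the test, and that of Phb was the most negative of the 10. Phb was at 16.6, 24.5, 15.1 and 20.8 CPM in mtD2+ against 23.4, 28.1, 16.9 and 30.8 CPM in mtD2-. It was lower in mtD2+ in 4 of 4 mice while the groups overlapped (log2 −0.35, SE 0.17, interval −0.73 to 0.02, adjusted p = 0.245), and it was the only 1 of the 10 genes to move 1 way in every mouse, as 32.3% of all tested genes did. Phb (chromosome 11, 95666957 to 95680773, plus strand) has 5 annotated pseudogenes of at least 90% identity, the closest of which, Gm7666, matched it at 99.878% over 819 bases and held 4 to 8 counts in mtD2+ and 2 to 16 in mtD2- libraries. A transcript of Fyb, an abundant gene here, also matched Phb at 100% over 339 bases. Reads shared with such copies are uncertain, and with the pseudogenes' counts added the log2 fold change was again −0.35 (adjusted p = 0.240). Each pseudogene held at most 16 counts in a library, against at least 342 for Phb, and Fyb was not added. This sum could therefore hardly change and does not settle how shared reads were counted. With library totals the log2 fold change of Phb was −0.41 (unadjusted p = 0.0346, adjusted p = 0.176). Phb2, on chromosome 6 from 124712336 to 124716950 (plus strand), was at 35.2, 34.8, 31.7 and 23.1 CPM in mtD2+ against 36.4, 33.2, 38.1 and 34.7 CPM in mtD2-. The low value was the mtD2+ library of mouse 4, and the log2 fold change of −0.21 (interval −0.56 to 0.15, adjusted p = 0.477) was −0.08 without that mouse.

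**Figure D2:**
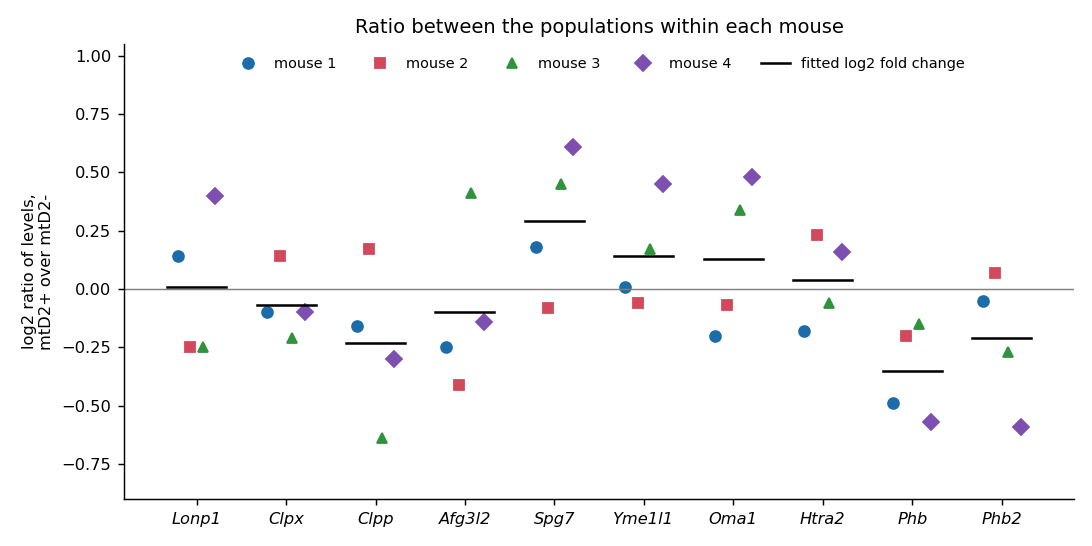
The log2 ratio of the levels, mtD2+ over mtD2- (y axis), for each gene in mice 1 to 4 (symbols), with the fitted log2 fold change as a black bar. The 4 ratios straddle 0 for every gene but Phb, and the ratios of mouse 4 are the highest of the 4 for Lonp1, Spg7, Yme1l1 and Oma1.

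Scaled to gene length, the means of the 10 genes over the 8 libraries ran from 6.233 (Spg7) to 27.18 CPM per kilobase (Clpp). Clpp was highest at 25.27 ± 6.057 CPM per kilobase in mtD2+ and 29.08 ± 1.64 in mtD2- (SD, n = 4 each), followed by Htra2 at 23.42 ± 0.848 in mtD2+ and 22.95 ± 3.085 in mtD2-. Their ranges over the 8 libraries overlapped, though Clpp was above Htra2 in 7 of 8 libraries. Htra2 was above Oma1 in all 8 libraries with no overlap of ranges. The level of Htra2 is uncertain, since it shares 36.1% of its exonic bases with Loxl3 and Aup1. Then came Oma1 (15.50 ± 1.976 in mtD2+ and 14.22 ± 2.54 in mtD2-), Afg3l2 (14.14 ± 1.196 and 15.40 ± 3.477) and Yme1l1 (12.92 ± 1.483 and 11.85 ± 2.453), each overlapping its neighbour in this order. Lonp1, Phb2, Clpx and Phb could not be ranked within their spread, with means over the 8 libraries of 9.003, 8.983, 8.809 and 7.854 CPM per kilobase. Spg7 had the lowest mean, with a range that overlapped that of Phb (6.823 ± 0.448 in mtD2+ and 5.643 ± 1.064 in mtD2-). The lengths are those of all annotated exons of a gene, which for Yme1l1 come to 8009 bases, so a gene with long rarely used exons ranks too low.

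Ratios between genes whose products work together do not depend on the scaling between libraries. The ratio of Afg3l2 to Spg7, the m-AAA subunits, was 2.05, 2.26, 2.05 and 1.93 in mtD2+ for mice 1 to 4 and 2.77, 2.85, 2.11 and 3.26 in mtD2-. It was lower in mtD2+ in 4 of 4 mice with overlapping groups, by a mean log2 difference of −0.39 ± 0.30 (SD, n = 4). The exact paired permutation test gave p = 0.13, which is the smallest that 4 pairs allow, and 0.5 after adjustment over the 4 ratios tested. Without mouse 4, whose mtD2- library gave the highest ratio, the mean difference was −0.27. The ratio of Clpx to Clpp averaged 0.356 ± 0.11 in mtD2+ and 0.313 ± 0.074 in mtD2- (mean log2 difference 0.17 ± 0.20, exact p = 0.25). Phb to Phb2 averaged 0.846 ± 0.27 in mtD2+ and 0.935 ± 0.27 in mtD2- (−0.15 ± 0.26, exact p = 0.5), with 2 mice higher and 2 lower. Yme1l1 to Oma1, the 2 proteases that cut Opa1, averaged 0.838 ± 0.099 in mtD2+ and 0.83 ± 0.047 in mtD2- (0.01 ± 0.16, exact p = 0.875).

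**Figure D3:**
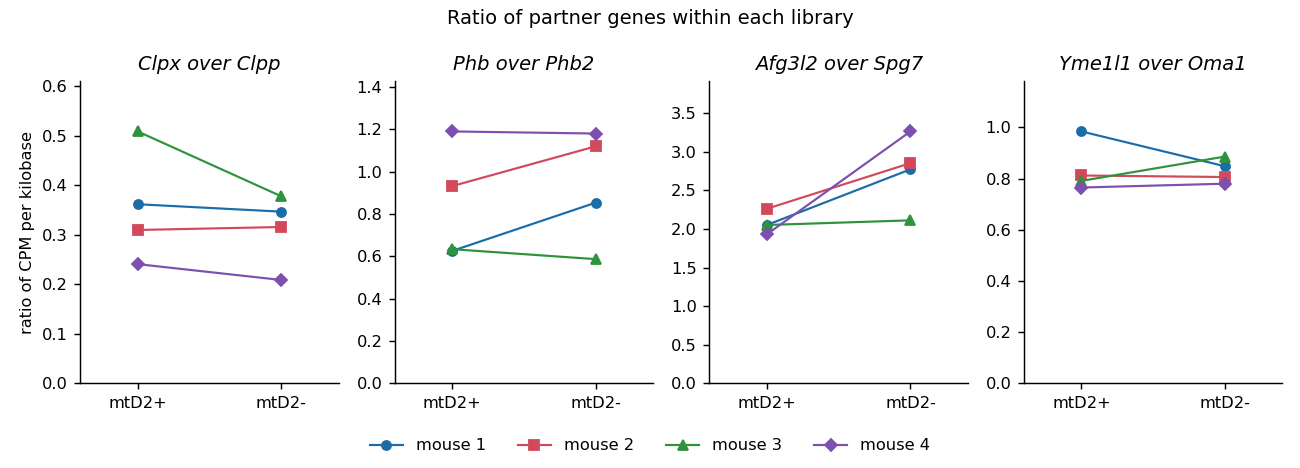
Ratio of CPM per kilobase between partner genes (y axis, from 0) in the mtD2+ and mtD2- library of each mouse, joined by a line. The Afg3l2 to Spg7 ratio spans 1.93 to 2.26 in mtD2+ and 2.11 to 3.26 in mtD2-, and the lines of the other ratios run in both directions.

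Of the 10 genes, Phb had the smallest unadjusted p, and its pattern over the 4 mice was compared with those of the other 54 mitochondrial genes of the lists. The nearest was Dnaja3, a mitochondrial Hsp40 co-chaperone, whose log2 ratios were −0.42, −0.20, −0.12 and −0.71 against −0.49, −0.20, −0.15 and −0.57 for Phb (root mean square difference 0.08). Next were Prelid1 (0.20), a lipid transfer protein that Yme1l1 degrades, Stard7 (0.22), a lipid carrier cut by the rhomboid protease Parl, and Phb2 and Stoml2 (0.27 each). Stoml2 encodes a scaffold of the inner membrane that binds prohibitins. The mtD2- library of mouse 4 enters all these patterns. Some gene is always nearest, and how many of all tested genes lie as near was not counted. Shared regulation was not tested.

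Around these 10 genes, 45 others of mitochondrial proteolysis and protein stress were tested in 4 lists, and 5 passed, 3 higher and 2 lower in mtD2+ (3.72% and 1.78% of all tested genes were called higher and lower). Of 16 other mitochondrial peptidases and AAA proteins, 1 rose and 0 fell (median log2 −0.08). The one that rose was Pitrm1, the peptidase that clears cut presequences, at 80.3, 72.9, 62.1 and 120.7 CPM in mtD2+ against 55.8, 41.3, 45.8 and 67.7 CPM in mtD2- (log2 0.66, SE 0.12, adjusted p = 0.0195). It was higher in 4 of 4 mice, with overlapping groups. Metap1d, a methionine aminopeptidase, stood at 125.5, 94.7, 112.5 and 106.1 CPM in mtD2+ against 88.4, 60.0, 92.5 and 24.9 CPM in mtD2- (log2 0.86, SE 0.26, adjusted p = 0.0951). The mtD2- library of mouse 4 was its lowest, and without that mouse the log2 fold change was 0.48 (adjusted p = 0.0820). Metap1d passed with DESeq2 (adjusted p = 0.00199) and with no low-count filter (adjusted p = 0.0213). Immp2l, a subunit of the inner membrane peptidase, and Afg3l1, a further m-AAA subunit active in the mouse, stood at log2 0.67 and −0.45 (SE 0.24 and 0.16, adjusted p = 0.140 and 0.136).

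Of 15 partners and substrates of the proteases, 0 rose and 1 fell, and 14 had a negative log2 fold change (median −0.258), as did 6979 of the 13933 genes tested (median −0.001). The one that fell was Prelid1, at 36.7, 46.9, 46.7 and 44.6 CPM in mtD2+ against 58.6, 60.5, 60.1 and 76.9 CPM in mtD2- (log2 −0.55, SE 0.13, adjusted p = 0.0456). Every mtD2+ library lay below every mtD2- library, and for 12.6% of all tested genes the groups did not overlap. Maip1, which binds the m-AAA protease, Timm17a, an import subunit that Yme1l1 degrades, and Stoml2 stood at log2 −0.70, −0.42 and −0.43 (SE 0.25, 0.15 and 0.19, adjusted p = 0.142, 0.133 and 0.212). Opa1 and Dele1, the Oma1 substrates, stood at log2 −0.08 and −0.40 (SE 0.19 and 0.20, adjusted p = 0.834 and 0.274).

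Among 8 mitochondrial chaperones 1 rose and 1 fell. Hspe1, the small subunit of the mitochondrial chaperonin, was at 175.4, 181.4, 116.9 and 185.3 CPM in mtD2+ against 77.0, 59.6, 55.5 and 90.8 CPM in mtD2- (log2 1.22, SE 0.13, adjusted p = 0.00249). Its groups did not overlap, as was so for 12.6% of all tested genes. Hspd1, the large subunit, is transcribed from the other strand of the same start region. It stood at 69.94 ± 28.68 CPM in mtD2+ and 60.86 ± 14.3 CPM in mtD2- (log2 0.15, SE 0.13, adjusted p = 0.543, and log2 0.05 without mouse 4). Grpel1, the nucleotide exchange factor of mitochondrial Hsp70, fell to 36.3, 43.2, 24.8 and 41.2 CPM in mtD2+, against 49.4, 58.0, 46.5 and 58.9 CPM in mtD2- (log2 −0.57, SE 0.14, adjusted p = 0.0469). Hspa9, the mitochondrial Hsp70, and Dnaja3 stood at log2 0.45 and −0.36 (SE 0.15 and 0.16, adjusted p = 0.112 and 0.219). Hspa9 passed without mouse 4 (log2 0.61, adjusted p = 0.0395) and with DESeq2 (log2 0.46, adjusted p = 0.0266). Of 6 transcription factors linked to mitochondrial stress, Atf4, the factor of the integrated stress response, rose in 4 of 4 mice, to 531.5 ± 87.83 CPM in mtD2+, against 379.7 ± 144.2 CPM in mtD2- (log2 0.54, SE 0.13, adjusted p = 0.0439). Ddit3 and Cebpb stood at 0.41 and 0.30 (SE 0.13 and 0.20, adjusted p = 0.0979 and 0.411), and Ddit3 passed with DESeq2 (adjusted p = 0.0404). The value of Cebpb was 0.08 without mouse 1 and 0.54 without mouse 4. Atf5 and Hsf1 stood at −0.06 and −0.05 (SE 0.30 and 0.18, adjusted p = 0.925 and 0.904).

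**Figure D4:**
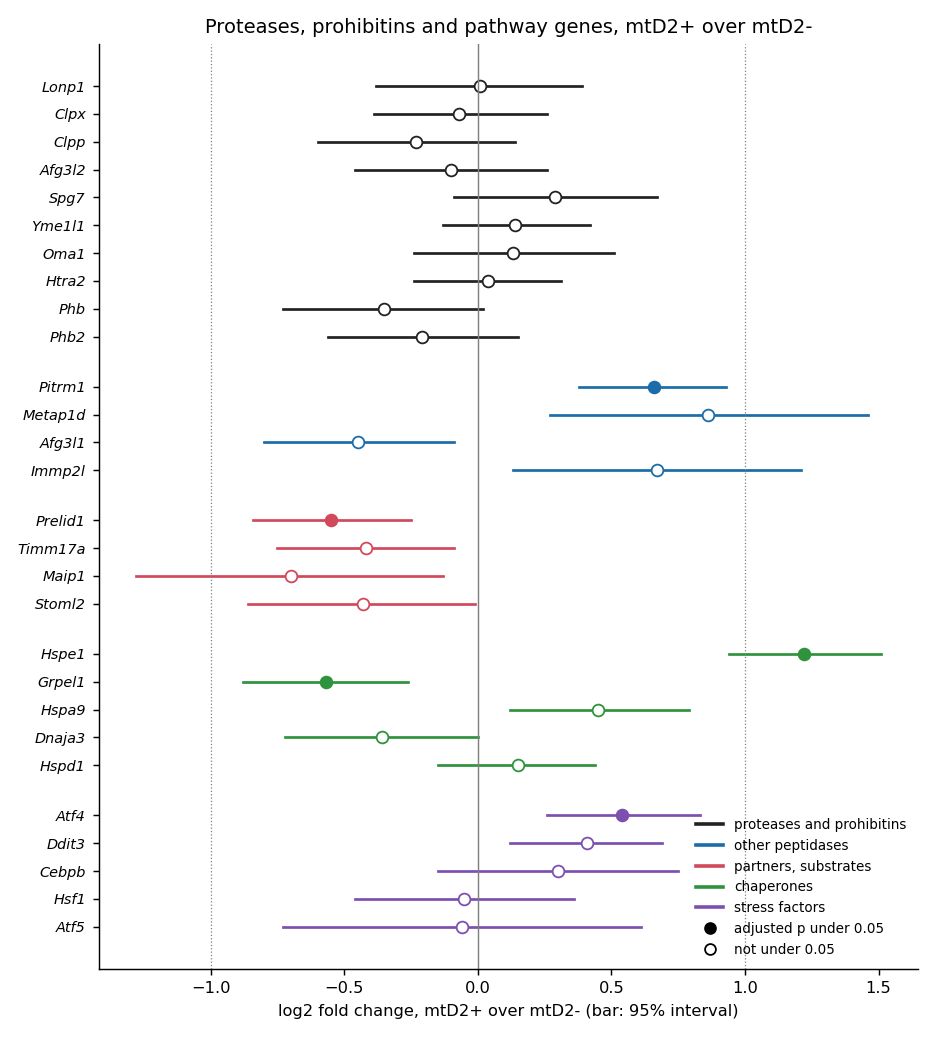
The log2 fold change, mtD2+ over mtD2- (x axis, bar: 95% interval, dotted lines: 2-fold), of the 10 proteases and prohibitins and of the named genes of 4 related lists. Filled points passed an adjusted p of 0.05 (Pitrm1, Prelid1, Hspe1, Grpel1 and Atf4), and all 10 proteases and prohibitins are open.

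Without the mouse block Hspe1 alone of the 45 passed (log2 1.22), and leaving out any 1 mouse left Hspe1 called (1.1 to 1.29). Pitrm1, Prelid1 and Grpel1 lost theirs without any 1 mouse (0.60 to 0.73, −0.61 to −0.47 and −0.62 to −0.45), and Atf4 without mouse 1, 2 or 3 (0.46 to 0.67 over all 4). Pitrm1, Prelid1, Grpel1 and Hspe1 overlap a gene on the other strand over 10.6%, 9.6%, 11.6% and 7.6% of their exonic bases, and Hspe1 and Prelid1 have pseudogene copies. The summed dissociation-responsive genes were higher in mtD2+ in all 4 mice, as were Hspe1, Atf4 and Pitrm1. That sum stood at log2 0.67 in mouse 3 and 0.09 in mouse 4, and Hspe1 at 1.07 and 1.03. Atf4 and Pitrm1 stood at 0.16 and 0.83 in mouse 4. The summed fibroblast markers were lower in mtD2+ in all 4 mice (log2 ratios −1.33, −1.0, −1.61 and −2.42), as were Prelid1 and Grpel1. These genes were picked because they passed, so a sign shared with a sum could not test a link. The part of dissociation or of fibroblast RNA in these differences was not tested.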

How the data were processed

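Per the labels, libraries were made with the SMARTer Ultra-Low kit from RNA of an RNeasy Micro column. The submitters' processing notes list GRCm38, STAR 2.0.4b, featureCounts 1.45, Subread and bcl2fastq, with no options named. The authors deposited whole-number counts per gene, which were used here. The authors also deposited CPM (count over the library's total) and RPKM (that CPM over length in kilobases). Both were checked against the counts and not used further. Symbols came from GENCODE M21, which named 40340 of 41388 identifiers.

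The quasi-likelihood test of edgeR 4.0.16 (R 4.3.3) was fitted to the counts with a term for each mouse and TMM scaling, on 13933 genes kept by its expression filter (minimum count 10, minimum total 15, proportion 0.7). The printed CPM uses TMM-scaled totals. SE is the fold change over the square root of F, and intervals use the test's own degrees of freedom. The pairing comes from the mouse that the labels give for each library. The deviations of a mouse's 2 libraries from the group means correlated at 0.039, 0.07, 0.145 and 0.251 in mice 1 to 4, where the highest correlation with another mouse was 0.058, 0.025, 0.014 and −0.01. Alternatives tried were leaving the mouse term out, 3 scalings, 2 filters, DESeq2 1.42.0, limma 3.58.1 voom and leaving out each mouse. Copies were sought by alignment of transcripts (at least 90% identity over 200 bases), and adding their counts was an alternative chosen after seeing the data.

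The genes and lists were chosen with earlier results of these data known. Named were all 10 genes, up to 4 genes of smallest p from each list, 4 further genes (Hspd1, Hspe1, Atf4 and Atf5) and the 5 nearest to the gene of smallest p. Opa1 and Dele1 were named outside this rule.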

Additional observations from a re-analysis of the deposited data

Results flagged for a closer look

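In 64 sets of 4 libraries (28 genes and 4 ratios in both populations), 4 had 1 library that lay far from the other 3 by Dixon's criterion at the 95% level, and chance gives about 1 in 20. Hspe1 was at 117 CPM in the mtD2+ library of mouse 3, against 175 to 185 CPM in the other 3. Yme1l1 was at 65.8 CPM in the mtD2- library of mouse 4, against 102 to 109 CPM. The same library was the highest of its group for Prelid1 (76.9 CPM, against 58.6 to 60.5 CPM) and for Hspd1 (82.1 CPM, against 51.0 to 55.7 CPM).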

How the results depend on the processing

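No protease or prohibitin gene was called in any of 12 alternative settings (lowest adjusted p 0.176, Phb with library totals), and 7 of the 10 kept their sign in all of them. Lonp1, Htra2 and Afg3l2 changed sign. Lonp1 went to −0.05 with library totals, to −0.0053 with limma voom and to −0.12 to 0.10 on leaving out each mouse. Htra2 went to −0.02 with library totals and to −0.03 to 0.11 on leaving out each mouse, and Afg3l2 to −0.26 to 0.0055. Hsf1 and Atf5 spanned −0.17 to 0.15 and −0.28 to 0.13. Without the replicate block 218 genes were called in place of 767 and 1 of the 45 related genes in place of 5. The DESeq2 Wald test called 1816 and 8, and upper quartile scaling called 3 of the 45. Leaving out each mouse gave 166 to 555 genes, and 1 to 3 of the 45. The cause was not tested, beyond there being fewer mice. For the ratio differences, the length scaling cancels and leaving out the mouse block does not change the mean. Leaving out a mouse cannot move that mean by as much as its SD over mice, so these settings could not test its stability. On leaving out each mouse, the Afg3l2 to Spg7 difference spanned −0.51 to −0.27. Without the mouse block the exact permutation p for Afg3l2 to Spg7 was 0.0571.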
